A study of Mus musculus with 9 samples.

Results

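The myeloid lineage transcription factors are the C/EBP proteins alpha, beta, delta and epsilon (genes Cebpa, Cebpb, Cebpd and Cebpe), PU.1 (Spi1), GFI1 (Gfi1) and IRF8 (Irf8). Members were the probe sets whose platform annotation names exactly 1 of these 7 symbols. These were 9 of the 45101 probe sets of the mouse Affymetrix array, and they cover 6 of the 18193 genes with a probe set, 2 probe sets each for Cebpb, Cebpd and Irf8 and 1 each for Cebpa, Spi1 and Gfi1. No probe set carried the name Cebpe in the annotation used here, so Cebpe was not analysed here. The cells were Lin-Sca1+cKit+ (LSK) bone marrow cells, the fraction that holds blood stem cells and multipotent progenitors. They were sorted 8 weeks after donor cells were given to C57Bl/6 mice irradiated with 10 Gy. The 3 groups were GFP-positive LSK cells and GFP-negative LSK cells of recipients of dnMPL-transduced cells, and LSK cells of control recipients of wild type LSK cells. Each group had 3 arrays, and the RNA on each array came from pooled marrow of 2 to 5 mice. dnMPL was delivered by a retroviral vector and the GFP-positive sort takes the cells that carry it; the promoter of the vector is not given in the sources used here. The sources used here name retroviral transduction in the protocol of every sample, and do not say what, if anything, the wild type cells of the controls received, nor whether GFP-positive and GFP-negative samples of 1 number shared mice. Nothing in the labels says that the arrays of a group came from separate experiments, so p-values measure the spread between these pools.

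These factors divide the work of making myeloid cells. PU.1, an ETS factor, is needed for both granulocytes and monocytes, C/EBP alpha takes progenitors into the granulocyte-monocyte lineage, C/EBP epsilon drives the later granule genes of neutrophils, and C/EBP beta takes over when granulocytes are needed in an emergency. C/EBP delta is induced by cytokines and during late granulocyte maturation. GFI1 is a zinc finger repressor that favours granulocytes and restrains stem cell proliferation, whereas IRF8, a partner of PU.1 on DNA, favours monocytes and dendritic cells.

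Promoter sequences of RefSeq (GRCm38.p6) were at hand for 4 of the 7 genes, Cebpa, Cebpb, Gfi1 and Irf8. The 2 shown are 1 of the 2 Irf8 windows and that of Cebpa. On 1 of its 2 probe sets, Irf8 had the largest difference from control of the factors. Cebpa carries the same core promoter motif at nearly the same place. Each is the stretch of 250 bases before the annotated start, and capitals mark the motif matches.
Irf8, chr8:120736108-120736357, + strand: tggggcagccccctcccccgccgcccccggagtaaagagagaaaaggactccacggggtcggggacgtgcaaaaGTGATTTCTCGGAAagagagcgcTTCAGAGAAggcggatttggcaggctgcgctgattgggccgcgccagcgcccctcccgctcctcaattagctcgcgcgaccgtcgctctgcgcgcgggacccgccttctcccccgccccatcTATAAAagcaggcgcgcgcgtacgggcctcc
Cebpa, chr7:35119043-35119292, + strand: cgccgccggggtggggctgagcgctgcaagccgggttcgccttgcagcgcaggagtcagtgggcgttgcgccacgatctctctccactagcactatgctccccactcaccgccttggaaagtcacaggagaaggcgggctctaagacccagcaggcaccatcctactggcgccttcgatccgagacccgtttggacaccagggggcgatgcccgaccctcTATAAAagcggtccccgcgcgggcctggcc
The motif TATAAA, the TATA box, lies 31 to 26 bases before the start of Irf8 and 30 to 25 bases before that of Cebpa. Anywhere in the window and on either strand, it was found in 12.4% of 32851 promoter windows of this length. In a short stretch around the place named, on the listed strand, it was in far fewer. These were 327 of 16560 windows of the + strand and 333 of 16291 of the - strand. The Irf8 window shown also holds the STAT motif TTCNNNGAA at 171 to 163 and at 153 to 145 bases before the start. At least 1 such match is in 7.02% of windows. The first of the 2 STAT matches overlaps a match on the reverse strand to AAATCAC, a core of the GFI1 motif that 2.75% of windows hold. The C/EBP motif TTGCNNAA (9.56% of windows) was found once among the members, in 1 of the 2 Gfi1 windows, and the PU.1 core GAGGAAG (10.6%) and the IRF motif, GAAA, any 2 bases, GAAA (2.98%), were found in none of their 6 windows. The other Irf8 window, chr8:120738389-120738638, held no match to any motif named here. A match is a run of letters and says nothing about binding in these cells.

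Array medians lay between 4.52 and 4.64 (log2 RMA value). Control 3 and GFP-positive 2 stood apart, with the lowest array weights (0.364 and 0.369, against 0.809 to 2.38 elsewhere) and the largest excess of the 3′ over the 5′ probe set of Gapdh (3.87 and 3.22, against 2.47 to 2.89), a sign of less complete RNA. Of 6 genes listed for LSK cells, 5 had a probe set, Kit, Cd34, Flt3, Ptprc and Cd27. Only Kit among these defines the gate, and Ly6a, which encodes Sca1, had no probe set under its name alone. The mean level of the 5 was 8.995 to 9.60 on GFP-positive, 9.27 to 9.49 on GFP-negative and 9.56 to 9.73 on control arrays. Over both fractions 2 of the 5 were higher than control and 3 lower, by point estimate. Kit, 1 of those lower, stood at 8.18, 6.38 and 8.18 on GFP-positive arrays, the low value being that of GFP-positive 2. It was at 7.92 to 8.22 on GFP-negative and 8.08 to 8.73 on control arrays. Cd27, the 1 of the 5 with an unadjusted p under 0.05 by limma (7.25% of all genes), differed by -0.79 ± 0.33 (SE). Of 7 T and NK cell markers 3 were above the filter. These were Cd247 (7.71 to 9.23 over all arrays), Nkg7 (6.995 to 8.55) and Cd3d (3.755 to 5.895). The mean level of the 7 was 4.74 to 5.29 on GFP-positive, 4.72 to 4.88 on GFP-negative and 4.32 to 4.49 on control arrays. Genes of granulocytes, which the gate should leave out, were high: the mean level of 11 granulocyte markers, all above the filter, was 9.20 to 11.1 on GFP-positive, 8.17 to 10.5 on GFP-negative and 5.42 to 9.34 on control arrays, the highest control being control 3. Their part in the levels of the factors was not tested, and in such bulk samples fewer cells of a type and less RNA per cell cannot be told apart. In no comparison did any of 12400 genes pass limma at an adjusted p under 0.05, while 805 did at an unadjusted p under 0.05 for GFP-positive against control, 691 for GFP-negative against control and 316 between the dnMPL fractions. All 6 member genes were above the filter, each represented by its brightest probe set in the tests across genes.

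**Figure D1:**
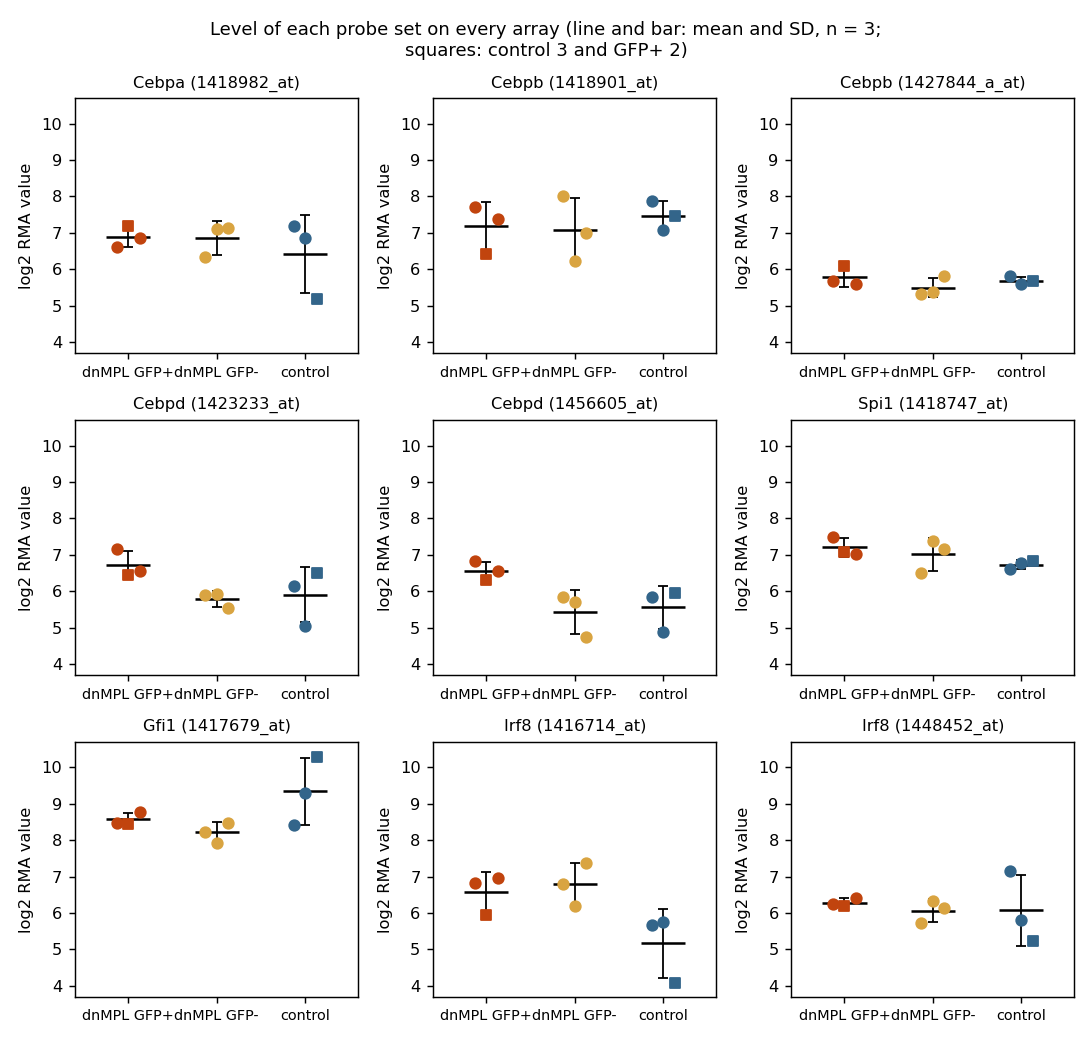
Log2 RMA value of each of the 9 probe sets (panels) on each array, by group; points are arrays, lines and bars are the mean and SD of 3 arrays, and squares mark control 3 and GFP-positive 2. Probe set 1416714_at of Irf8 is lower on all 3 controls than on any dnMPL array, while 1448452_at of the same gene is not.

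On the brightest probe sets, Irf8 differed most from control among the 6 factors, but 1 of its 2 probe sets did not share the difference. On its brightest probe set, 1416714_at, GFP-positive cells had Irf8 levels of 6.82, 5.95 and 6.97 and GFP-negative cells 6.80, 6.20 and 7.37, against 5.67, 5.76 and 4.08 in controls. Every dnMPL array was above every control, and the dnMPL fractions overlapped each other. The difference was 1.41 ± 0.52 (SE) for GFP-positive cells, a fold of 2.65, and 1.62 ± 0.52 for GFP-negative cells, a fold of 3.08, and neither passed (limma adjusted p = 0.718 and 0.763). GFP-positive and GFP-negative cells differed by -0.21, with a 95% interval from -1.37 to 0.946. Levels averaged 6.58 ± 0.55 in GFP-positive, 6.79 ± 0.58 in GFP-negative and 5.17 ± 0.95 in control cells (SD, n = 3 each), and the 2 dnMPL fractions did not differ beyond their spread.

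The other Irf8 probe set, 1448452_at, gave 6.26, 6.18 and 6.42 in GFP-positive and 5.72, 6.34 and 6.14 in GFP-negative cells, against 7.16, 5.81 and 5.25 in controls. Here the groups overlapped, and control 1 was the highest of all 9 arrays. Its differences from control were 0.22 ± 0.44 in GFP-positive and -0.0087 ± 0.44 in GFP-negative cells. The annotation cites the same transcript record for both probe sets, yet their values correlated at r = 0.364 over the 9 arrays and r = -0.306 without control 3. The first probe set minus the second was -1.49 on control 1 and -1.17 on control 3, and -0.0484 on control 2; on the dnMPL arrays it ran from -0.231 to 1.23. The brightest was brighter by little (means over all arrays 6.18 and 6.14), so the choice between them rests on a small margin. With the mean of probe sets Irf8 did not differ most from control. In GFP-positive cells it was then at 0.812 and Cebpd at 0.913. In GFP-negative cells it was at 0.806 and Gfi1 at -1.13. Control 3 gave the lowest Irf8 value on both Irf8 probe sets. Without that array the differences on 1416714_at were 0.861 for GFP-positive and 1.07 for GFP-negative cells.

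**Figure D2:**
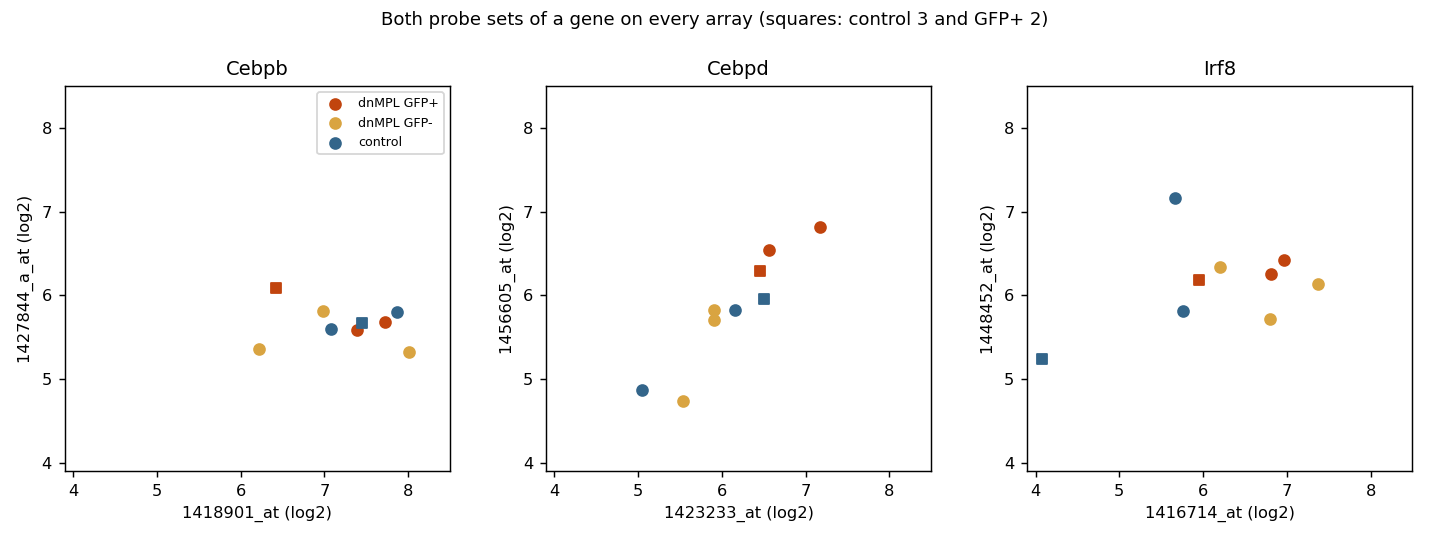
Level of the second probe set (vertical axis, log2 RMA value) against the brightest one (horizontal axis) on each of the 9 arrays, for the 3 genes with 2 probe sets; squares mark control 3 and GFP-positive 2. The Cebpd pair lies along a line (r = 0.936), the Cebpb pair (r = -0.219) and the Irf8 pair (r = 0.364) do not.

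Cebpd was the 1 factor whose levels separated GFP-positive from GFP-negative cells, and both of its probe sets showed this. On 1423233_at GFP-positive cells had 7.17, 6.46 and 6.56, GFP-negative cells 5.90, 5.91 and 5.54, and controls 6.15, 5.05 and 6.504. All GFP-positive arrays were above all GFP-negative ones, and control 3 reached into the GFP-positive range. GFP-positive exceeded GFP-negative cells by 0.95 ± 0.40 (SE; fold 1.93; limma adjusted p = 1, with a 95% interval from 0.0536 to 1.84), which did not pass. Over all genes, GFP-positive arrays were above GFP-negative ones without overlap in 3.96%, and among the members in 1 of 6. GFP-positive cells exceeded control by 0.83 ± 0.40 (limma adjusted p = 0.778), which was 0.401 without control 2, and GFP-negative cells differed from control by -0.12 ± 0.40, which was -0.545 without control 2 and 0.181 without control 3. On 1456605_at, which tracked the first probe set at r = 0.936, the levels were 6.82, 6.29 and 6.54 in GFP-positive, 5.83, 5.71 and 4.74 in GFP-negative and 5.83, 4.87 and 5.96 in control cells. There GFP-positive cells were above both other groups on every array, by 1.13 ± 0.39 over GFP-negative and 1.00 ± 0.39 over control cells, again without passing (limma adjusted p = 1 and 0.992 over all 45037 probe sets other than controls). With any 1 array left out, GFP-positive minus GFP-negative on the brightest probe set stayed between 0.727 and 1.08. Levels averaged 6.73 ± 0.38 in GFP-positive, 5.78 ± 0.215 in GFP-negative and 5.90 ± 0.76 in control cells (SD, n = 3 each), the last 2 within their spread.

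Cebpa, the factor that opens the granulocyte-monocyte program, differed little between groups apart from 1 control array. GFP-positive cells had 6.62, 7.19 and 6.86 and GFP-negative cells 6.34, 7.105 and 7.15, against 7.20, 6.86 and 5.197 in controls. The groups overlapped, and control 3 was the lowest array by over 1 on the log2 scale. GFP-positive cells exceeded control by 0.47 ± 0.50 (SE; 95% interval from -0.658 to 1.60) and GFP-negative cells by 0.44 ± 0.50 (limma adjusted p = 0.952 and 0.94). Without control 3 both differences were below 0, at -0.141 and -0.168. GFP-positive and GFP-negative cells differed by 0.027 ± 0.50. The order GFP-positive (6.89 ± 0.29, SD), GFP-negative (6.86 ± 0.46) and control (6.42 ± 1.07) held no neighbours that differed beyond their spread.

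Cebpb, the C/EBP gene of emergency granulopoiesis, varied more within groups than between them. On 1418901_at it was at 7.72, 6.42 and 7.39 in GFP-positive, 8.01, 6.22 and 6.99 in GFP-negative and 7.87, 7.08 and 7.455 in control cells. In each group array 1 was the highest and array 2 the lowest. The main fit did not pair arrays by number, and the cause of this order was not tested. The groups overlapped, and the differences from control were -0.29 ± 0.50 and -0.39 ± 0.50 (limma adjusted p = 0.989 and 0.948). The second probe set, 1427844_a_at, was nearly flat, at 5.32 to 6.09 on all 9 arrays, and did not track the first (r = -0.219). GFP-positive (7.18 ± 0.68, SD), GFP-negative (7.07 ± 0.90) and control (7.47 ± 0.395) levels, of which control was the highest, did not differ beyond their spread.

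Spi1, which encodes PU.1, was slightly higher in GFP-positive cells and had the tightest controls of the 6 genes. GFP-positive cells had 7.497, 7.08 and 7.03 and GFP-negative cells 6.51, 7.38 and 7.16, against 6.60, 6.77 and 6.82 in controls. The GFP-positive arrays were all above the controls, while GFP-negative 1 was below them. GFP-positive cells exceeded control by 0.47 ± 0.30 (SE; fold 1.39; 95% interval from -0.204 to 1.14) and GFP-negative cells by 0.29 ± 0.30, and neither passed (limma adjusted p = 0.863 and 0.937). With any 1 array left out, the difference from control lay between 0.322 and 0.554 for GFP-positive cells. For GFP-negative cells it was 0.103 without GFP-negative 2 and 0.539 without GFP-negative 1. The SD of the controls, 0.113, was below those of GFP-positive (0.256) and GFP-negative cells (0.453), and the levels ran from GFP-positive (7.20) over GFP-negative (7.02) to control (6.73).

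Gfi1, the repressor, was the 1 factor lower than control in both fractions by more than 0.5 on the log2 scale, and its controls were far apart. GFP-positive cells had 8.49, 8.46 and 8.77 and GFP-negative cells 8.23, 7.93 and 8.49, against 8.43, 9.31 and 10.3 in controls. Control 1 lay among the dnMPL arrays, and control 3 was the highest. GFP-positive cells differed from control by -0.77 ± 0.43 (SE) and GFP-negative cells by -1.13 ± 0.43 (limma adjusted p = 0.822 and 0.862). Without control 3 the differences were -0.297 and -0.653. GFP-positive exceeded GFP-negative cells by 0.36 ± 0.43. Levels averaged 8.57 ± 0.17 in GFP-positive, 8.22 ± 0.28 in GFP-negative and 9.34 ± 0.93 in control cells (SD, n = 3 each), control being the highest and GFP-negative the lowest, and no neighbours in this order differed past the test.

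Across the 6 genes, 0 passed in any of the 4 comparisons, where 0% of all genes were called at an adjusted p under 0.05. At an unadjusted p under 0.05 there were 1 of 6 for GFP-positive against control (Irf8; 6.49% of all genes), 2 for GFP-negative against control (Irf8 and Gfi1; 5.57%), 1 between the fractions (Cebpd; 2.55%) and 2 for both fractions against control (Irf8 and Gfi1; 7.25%). By point estimate 4 of 6 were higher in GFP-positive than in control cells (47.2% of all genes), 3 in GFP-negative than in control cells (46.5%), 5 in GFP-positive than in GFP-negative cells (51.8%) and 4 in both fractions than in control (46.4%). In GFP-positive against control, Irf8 and Spi1 were above the controls without overlap, and 4.35% of all genes were. In GFP-negative against control it was Irf8 alone, with 4.94% of all genes, and over both fractions Irf8 alone, with 1.6%. The median of the 6 differences was 0.4701 for GFP-positive against control (all genes -0.0275), 0.083 for GFP-negative against control (all genes -0.0379) and 0.14 between the fractions (all genes 0.0149). The first median was 0.186 without control 3 and the second -0.12 without control 2. Comparisons with the same controls share their error, so they are given side by side and not set against each other. With both dnMPL fractions taken against control, the estimates were 1.51 ± 0.45 for Irf8 and -0.95 ± 0.37 for Gfi1 (limma adjusted p = 0.506 and 0.616). The other 4 lay between -0.34 and 0.46. Without control 3, Irf8 was at 0.968 and Gfi1 at -0.475.

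**Figure D3:**
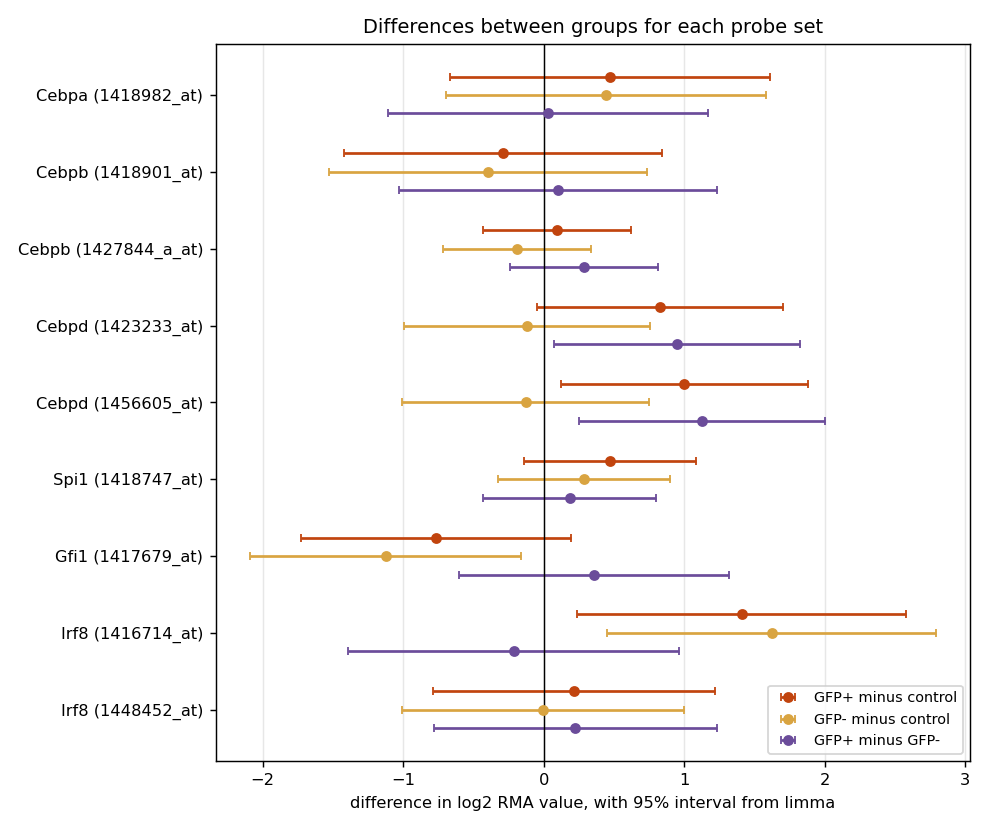
Difference in log2 RMA value (horizontal axis) with its 95% interval from the limma fit over all probe sets, for each of the 9 probe sets and 3 comparisons. Intervals clear of 0 are those of Irf8 1416714_at against control, of Gfi1 for GFP-negative against control, and of Cebpd between the fractions and, for 1456605_at, against control; no adjusted p was under 0.05.

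**Figure D4:**
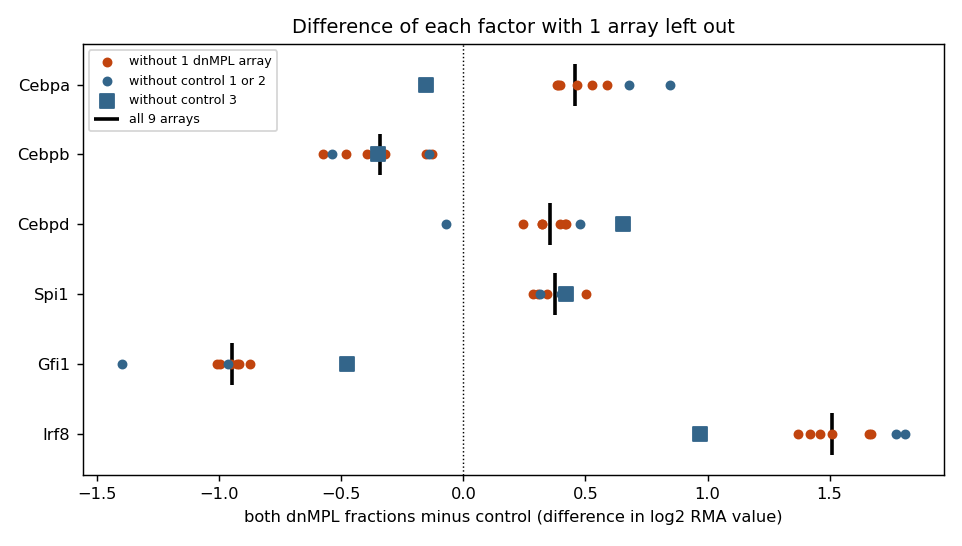
Difference of each factor, both dnMPL fractions minus control (horizontal axis, log2), with all 9 arrays (bars) and with 1 array left out (points); squares are the values without control 3. Cebpa crosses 0 without control 3 (-0.154) and Cebpd without control 2 (-0.072), while Irf8 stays between 0.968 and 1.81.

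The relatives and partners of these factors showed no common shift. Of 9 tested C/EBP relatives and regulators, 4 were higher and 5 lower in both dnMPL fractions than in control. Their median was -0.082 (all genes -0.0332). At an unadjusted p under 0.05 by limma there was 1 of 9, against 7.25% of all genes. This was Trib1, whose pseudokinase targets C/EBP alpha for degradation. Its levels were 5.61, 5.36 and 4.85 in GFP-positive and 5.095, 5.49 and 5.44 in GFP-negative cells, against 6.97, 5.49 and 6.34 in controls, a difference of -0.96 ± 0.34 (limma adjusted p = 0.592). Without control 1 it was 0 of 9, with a median of 0.0817. Batf, a bZIP factor, and Ddit3, the stress-induced C/EBP relative CHOP, differed by -0.61 ± 0.39 and -0.33 ± 0.22. Of 10 relatives and partners of PU.1 and IRF8, 3 were higher and 7 lower, with a median of -0.18. Jun, an AP-1 factor that PU.1 recruits, differed by -1.04 ± 0.29 (limma adjusted p = 0.50) and was below the controls on all 6 dnMPL arrays, a pattern of 1.96% of all genes, as was Runx1, which activates Spi1 in stem cells, at -0.49 ± 0.25. The ETS factor Ets1 differed by -1.03 ± 0.51.

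GFI1's relative and corepressors were near 0, with 3 of 6 higher and a median of 0.058. Zbtb17 (MIZ1), Rcor1 (CoREST) and the demethylase Kdm1a differed by 0.20 ± 0.25, 0.22 ± 0.32 and 0.29 ± 0.48. Of 12 other myeloid factors 6 were higher and 6 lower, and 0 had an unadjusted p under 0.05 by limma (7.25% of all genes). The antioxidant regulator Nfe2l2, the homeobox factor Hhex and Runx3 differed by 0.68 ± 0.32, -0.69 ± 0.34 and 0.57 ± 0.37. Of 15 factors of other lineages 8 were higher and 7 lower, with a median of 0.018. An unadjusted p under 0.05 by limma was found for 2 of the 15 (7.25% of all genes). They were Notch1, the receptor that directs T cell fate, at 0.88 ± 0.35, and the erythroid factor Klf1 at 1.29 ± 0.54. Bcl11a, which acts in B cells and silences fetal globin, differed by -0.89 ± 0.41. None of these passed (limma adjusted p from 0.616 to 0.704 for these 3). The mean level of 11 erythroid markers, Klf1 included and 10 of them above the filter, was 6.22 to 6.44 on GFP-positive, 5.90 to 6.403 on GFP-negative and 4.67 to 4.91 on control arrays. Their part in the Klf1 values was not tested.

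Of 16 tested known targets of the C/EBP proteins and PU.1, 16 were higher in GFP-positive than in control cells (47.2% of all genes). Their median difference was 1.66, and 8 did not overlap the controls (4.35% of all genes). In GFP-negative cells 15 of 16 were higher (46.5% of all genes), with a median of 1.095, and 8 did not overlap (4.94%). Over both fractions the 3 with the smallest p were the Fc receptor gene Fcgr3 at 1.64 ± 0.24, the granule protease gene Ctsg at 2.54 ± 0.42 and the progenitor marker Ms4a3 at 2.45 ± 0.44 (limma adjusted p = 0.141, 0.141 and 0.202). None passed. Fcgr3 read 6.864 on all 3 GFP-negative arrays, a tie, so its SD there was 0 and its SE rests on less spread. The median of the 16 over both fractions, 1.375, lay between 1.10 and 1.63 with any 1 array left out. Several of these targets had been seen to differ in earlier results of these data, so the list is no independent evidence. Csf1r, the M-CSF receptor gene and a target of PU.1, was chosen after its values were seen. GFP-positive cells had levels of 10.8, 3.62 and 9.62 and GFP-negative cells 8.93, 7.19 and 9.51, against 4.90, 6.68 and 4.56 in controls, so the GFP-positive group held both the highest and the lowest array.

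Targets of C/EBP epsilon, the late granule genes, were higher by point estimate in all 8 tested in both fractions. Of all genes, 47.2% were higher in GFP-positive and 46.5% in GFP-negative cells. The median of the 8 was 3.27 in GFP-positive and 2.47 in GFP-negative cells. None passed. In GFP-positive cells 3 of the 8 were above all controls (4.35% of all genes), Lcn2, Mmp8 and Ltf, the last named after its values were seen, and 0 of the 8 were in GFP-negative cells (4.94%) or over both fractions (1.6%). Lcn2, which encodes the granule protein lipocalin, had levels of 10.6, 9.14 and 8.90 in GFP-positive and 10.04, 8.21 and 7.99 in GFP-negative cells, against 5.17, 3.47 and 8.30 in controls. Control 3 was within the range of the dnMPL arrays, and Mmp8 and Camp showed the same at 6.18 and 10.4. The median over both fractions, 2.91, was 4.07 without control 3 and 1.74 without control 2. Of these 8 genes 7 are also among the 11 granulocyte markers given above, so both lists describe nearly the same genes.

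Genes that depend on IRF8 were higher by point estimate in 7 of 7 over both fractions (46.4% of all genes), but the median was 0.15. Ly86, a surface protein gene of monocytes and B cells, stood out. GFP-positive cells had levels of 7.298, 4.49 and 6.66 and GFP-negative cells 6.09, 6.88 and 6.88, against 3.91, 4.08 and 3.69 in controls. All dnMPL arrays were above all controls, a pattern of 1.6% of all genes, by 2.49 ± 0.54 (limma adjusted p = 0.264). Ctsc, a protease that activates granule enzymes, and Cd180, a relative of Toll-like receptors, differed by 0.77 ± 0.58 and 0.46 ± 0.43. Dendritic cell markers, 9 with a probe set and 8 above the filter, had a mean level of 6.66 to 7.00 on GFP-positive, 6.61 to 7.00 on GFP-negative and 6.20 to 6.48 on control arrays. Monocyte and macrophage markers, 12 with 9 above the filter, were at 4.72 to 6.24, 4.81 to 6.22 and 4.34 to 4.85 in the same groups. B cell markers, 9 with 8 above the filter, were at 6.04 to 6.52 on GFP-positive, 4.88 to 5.83 on GFP-negative and 3.89 to 5.77 on control arrays. The part of these 3 sets of markers in the Irf8 and Ly86 values was not tested.

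Of 7 tested genes that GFI1 is known to repress, 2 were higher and 5 lower over both fractions, with a median of -0.61. Egr1, an immediate early factor, differed by -1.70 ± 0.41 and the stem cell homeobox genes Meis1 and Hoxa9 by -0.82 ± 0.40 and -0.61 ± 0.32 (limma adjusted p = 0.351, 0.72 and 0.741).

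**Figure D5:**
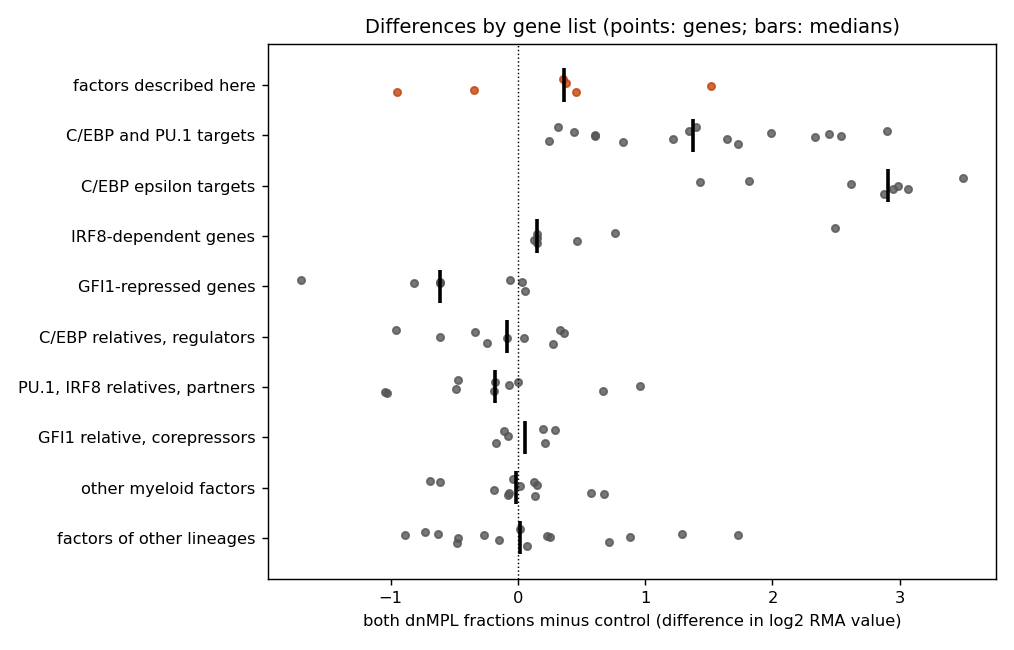
Difference of both dnMPL fractions from control (horizontal axis, log2 RMA value) for each tested gene (points), by gene list (rows), with the median of each list (bars). The 6 factors scatter from -0.95 to 1.51, while all C/EBP and PU.1 targets and C/EBP epsilon targets lie above 0, by point estimate.

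The genes most like each factor were found by Pearson correlation over the 9 arrays among 12399 other genes, and such values are high because they are the largest of many. Irf8 was closest to Naa35 (r = 0.963) and Tmem165 (0.957), Cebpd to Calr (0.958) and Echdc2 (0.954), and Spi1 to Ccdc181 (0.929) and St8sia1 (0.928). Cebpa was closest to Snrnp25 (0.972) and Mrps26 (0.97), Cebpb to B4galt6 (0.92) and Sirt7 (0.876) and Gfi1 to Dab2ip (0.962) and Ubash3a (0.947). Without control 3 the r values were 0.931 for Naa35 and 0.888 for Tmem165, 0.924 for Snrnp25 and 0.886 for Mrps26, and 0.862 for Dab2ip and 0.817 for Ubash3a. Control 3 was the lowest array for the first 4 of these genes and the highest for Dab2ip and Ubash3a. For the genes closest to Cebpb, Cebpd and Spi1, r without that array lay between 0.906 and 0.957. Among the factors, Cebpa and Gfi1 ran opposite over the 9 arrays (r = -0.765), which without control 3 was -0.0488, and Cebpa with Irf8 turned from 0.617 to -0.364. No pair of factors held an r beyond 0.62 in size without that array.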

How the data were processed

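Amplified, biotin-labelled RNA of 9 samples, 3 per group, was measured on 1 array each. The authors deposited log2 values made with RMA, per the submitters' processing notes, which give no version. RMA brings the probe intensities of all arrays to 1 distribution and then fits 1 level per probe set. The fit leaves ties (19019 probe sets had equal values on 2 or more arrays). Scanner files were not used here. The platform annotation named 1 gene for 34945 of 45101 probe sets, several for 932 and none for 9160, and 64 were controls. The brightest probe set, by its mean over all arrays, stood for each gene, and 12400 of 18193 genes above the 40th percentile of probe set means (4.03) were tested with limma 3.58.1 (R 4.3.3) on group means over all 9 arrays, with Benjamini-Hochberg adjustment over all genes and a threshold of 0.05. The same fit over 45037 probe sets gave the values of each member probe set.

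The members, lists and tests were chosen with earlier results of these data known. Named genes were the members, up to 3 genes per list with the smallest p over both dnMPL fractions, and the 2 genes closest to each member. The other settings tried changed the filter, the probe set, the normalization, the variance prior, the array weights, the arrays in the fit and the replicate block. On simulated data for 12400 genes, 56% of changes of 2 on the log2 scale and 6% of changes of 1 were recovered for GFP-positive against control, and 48% and 2% for GFP-negative against control. The number of arrays limits the precision. Figures were drawn with matplotlib 3.10.9.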

Additional observations from a re-analysis of the deposited data

How the results depend on the processing

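Differences between groups of the 6 factors stayed short of an adjusted p under 0.05 by limma under every setting tried. The number of genes past that threshold stayed at 0 in every setting except array weights, where 3 passed for both dnMPL fractions against control, Slc4a1, Fcgr3 and Fabp4, named after their values were seen. Irf8, Spi1 and Gfi1 kept their sign against control under all settings, with the 1 exception that the second Irf8 probe set, chosen after seeing the data, gave -0.00869 for GFP-negative cells. With the mean of probe sets Irf8 was at 0.812 and 0.806 in GFP-positive and GFP-negative cells against control. Signs turned in the following. Between the fractions, Irf8 was at 0.00602 by the mean of probe sets, 0.127 with array weights, 0.10 without control 3 and GFP-positive 2, and 0.225 by its second probe set, and Cebpa at -0.171 with array weights and -0.123 without those 2 arrays. For GFP-positive against control, array weights gave Cebpa -0.0811 and Cebpb 0.00656, leaving out those 2 arrays gave -0.291 and 0.082, and the second Cebpb probe set gave 0.0958. For GFP-negative against control, Cebpd was at 0.0594 with array weights, and Cebpa and Cebpd at -0.168 and 0.181 without the 2 arrays. For both fractions against control, Cebpa was at -0.23 without them.

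With 1 array left out at a time, GFP-positive against control ranged from -0.141 to 0.862 for Cebpa, from -0.565 to 0.0886 for Cebpb, from 0.401 to 1.13 for Cebpd and from 0.186 to 0.634 for the median of the factors. GFP-negative against control ranged from -0.168 to 0.834 for Cebpa, from -0.863 to 0.0308 for Cebpb and from -0.545 to 0.181 for Cebpd. Between the fractions the ranges were -0.236 to 0.17 for Cebpa, -0.322 to 0.572 for Cebpb, -0.508 to 0.10 for Irf8 and -0.0694 to 0.366 for Spi1. For both fractions against control they were -0.154 to 0.848 for Cebpa and -0.072 to 0.654 for Cebpd. The cause was not tested. Over all tested genes, same-numbered arrays did not deviate together (r from -0.29 to 0.101). Such values cannot tell whether arrays of 1 number shared mice, so pairing stays unknown. With the replicate block 0 genes passed and Irf8 stood at 1.41 and 1.62. With 3 arrays a group, a difference of 1 on the log2 scale was mostly below what the test recovers.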
